A study of Mus musculus with 17 samples.

Results

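The lung transcriptomes of PPARα null (KO) and wild type (WT) mice were compared after PFOA exposure, in 6 of the 17 RNA sequencing libraries of the study. These were the KO mice 52, 154 and 155 and the WT mice 50, 56 and 65, one library per mouse. All 6 drank water with 6.2 µg/mL perfluorooctanoic acid (PFOA, a long-chain perfluorinated acid, the group labelled Hi-PFOA) and 0.5% sucrose for 14 weeks. From an age of 6 weeks all groups ate a diet modelled on what American adults eat. The age at which the PFOA water began is not stated separately. Of the 31245 genes counted, 26946 had a total of at least 20 counts over all libraries, and the 26073 of these on autosomes are described here, since sex was not balanced: the 3 KO mice were female, and of the WT mice 50 was female and 56 and 65 were male. The same genotypes without PFOA (KO vehicle mice 137, 145 and 149 and WT vehicle mice 107 and 122, on sucrose water alone) share no library with this comparison, and their values are given beside it. The remaining genotype, humanized PPARα (KI), carries the human receptor in place of the mouse one. WT mice were bought as Sv/129 animals, whereas KO and KI mice were bred from one colony of PPARα null and human PPARα heterozygous pairs, so the genotype and the colony of origin cannot be told apart in KO against WT. The i5 index of the library was not balanced either: it was one and the same in all 3 KO libraries, and of the WT libraries only that of mouse 56 carried it.

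PPARα is a nuclear receptor that is activated by fatty acids and by PFOA. It pairs with RXR on DNA and switches on genes of fatty acid uptake, mitochondrial and peroxisomal β-oxidation and ketone body synthesis, most strongly in liver, heart and kidney, and at low level in lung. In many tissues it also restrains inflammatory transcription, and its own gene and several of its targets follow the day-night cycle.

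The PFOA libraries held 6655398 to 7821503 counts in WT and 6646114 to 9237385 in KO, which puts 3 counts at 0.325 to 0.451 CPM (counts per 1000000). Their composition differed between the genotypes without overlap. Protein-coding genes took 76.5% to 77.7% of the counts in KO and 78.5% to 80.4% in WT. Ribosomal RNA, nuclear and mitochondrial together, took 8.94% to 10.1% in KO and 6.73% to 7.61% in WT. The share of all mitochondrial genes overlapped, with 6.34% to 7.67% in KO and 4.90% to 6.38% in WT. Vehicle libraries 122 (WT) and 137 (KO) stood apart from the other 15, with protein-coding shares of 65.3% and 61.3%. The lung markers Sftpc, Scgb1a1, Ager and Cdh5 were abundant in every PFOA library, whereas the summed level of 11 cardiac muscle markers ran from 570.4 to 5078 CPM in WT and from 593.5 to 2185 CPM in KO, and these ranges overlapped. As these are bulk libraries, more cells of a type and more RNA per cell cannot be told apart.

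The levels of Ppara, the targeted gene, were not lower in the libraries labelled KO. Ppara (chromosome 15, 85734983 to 85802819, mm10) stood at 5.07, 4.39 and 6.94 CPM in WT mice 50, 56 and 65 and at 10.1, 11.3 and 8.82 CPM in KO mice 52, 154 and 155, the order of mice used throughout. All 3 KO libraries were above all 3 WT libraries, and the difference of 0.88 ± 0.26 (log2, SE) did not pass the threshold (adjusted p = 0.212, edgeR quasi-likelihood test with Benjamini-Hochberg adjustment). On vehicle the levels were 6.13 and 7.21 CPM in WT and 11.7, 10.3 and 9.17 CPM in KO. In KI lung on PFOA they were 20.4, 14.9 and 9.08 CPM. The counts cover the whole gene, so they do not check a deletion of a part of it. With sex as a term Ppara passed as higher in KO (log2 difference 1.12, adjusted p = 0.139, edgeR), and so it did with the i5 index as a term (1.17, adjusted p = 0.126). For the other receptors of the family, Ppard had a log2 difference of 0.05 ± 0.16 and Pparg of -0.09 ± 0.26. The partner receptors Rxra and Rxrb had -0.17 ± 0.13 and -0.23 ± 0.15, with overlapping libraries in Rxrb. Rxrg had the largest difference of the list, -1.41 ± 0.94 (adjusted p = 0.849, edgeR), at 0.38, 0.585 and 2.44 CPM in WT and 0.664, 0.426 and 0.15 CPM in KO, where the groups overlapped and several values were close to the level of 3 counts. None of the 16 receptor and coregulator genes listed passed the threshold, and the most abundant of them, the corepressor Ncor1, stood at 460 ± 9.3 CPM in WT and 484 ± 18.4 CPM in KO (SD, n = 3).

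KO and WT lung on PFOA differed in 269 autosomal genes (1.03% of those tested). The call required more than 2-fold and an adjusted p below 0.2 in edgeR's quasi-likelihood test, both thresholds being those of the study. Of these, 169 were higher in KO (0.648%) and 100 were lower (0.384%), and 194 were protein-coding, 1.18% of the 16419 protein-coding genes (0.749% higher and 0.432% lower). At an adjusted p under 0.05 and the same fold, 109 remained. The 3 KO and the 3 WT libraries did not overlap in 264 of the 269 (18.5% over all autosomal genes), which follows from the choice of these genes on the same libraries and is given as a description. The count depended on single libraries: it was 120 without WT mouse 56, 130 without WT mouse 50, 136 without KO mouse 155 and 151 without KO mouse 52. With sex as a term 151 of the 269 still passed and with the i5 index 77, while 269 and 268 kept their direction. An exact permutation test of 3 against 3 libraries cannot go below p = 0.1 for a single gene, so the p-values rest on the spread shared over the 6 groups.

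**Figure D1:**
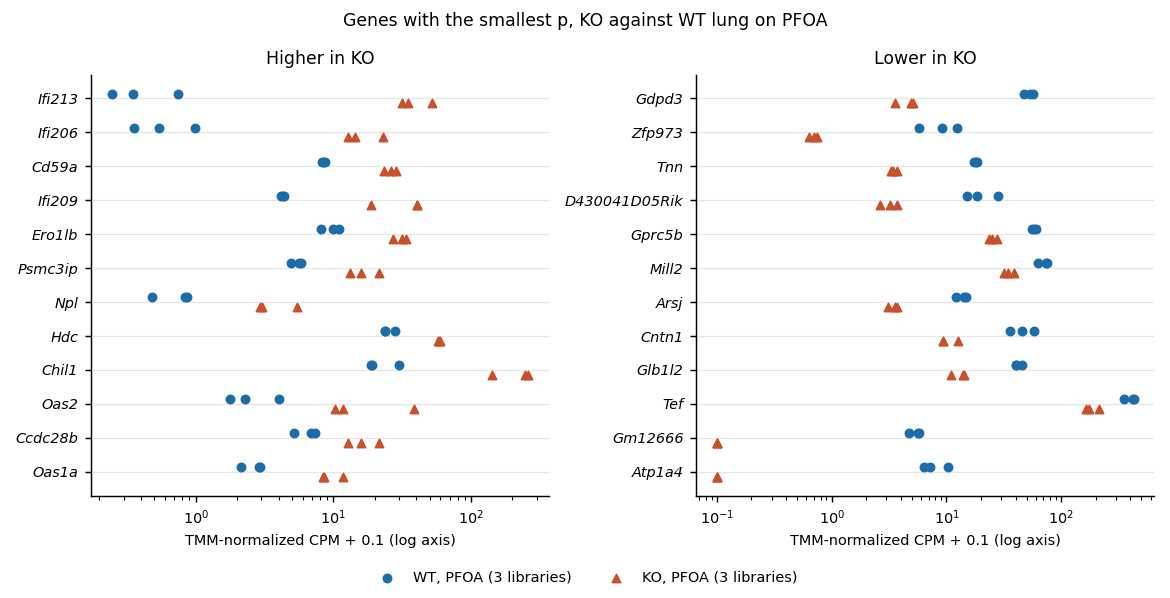
The 12 higher (left) and 12 lower (right) protein-coding genes with the smallest p in KO against WT lung on PFOA. Each point is the TMM-normalized CPM of 1 library (plus 0.1, log axis), circles for WT and triangles for KO, with 3 libraries each. Genes were taken only where the 2 genotypes do not overlap, and Gm12666 and Atp1a4 have 0 counts in all 3 KO libraries.

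The lower genes with the smallest p included several at a few CPM or none in KO. Gdpd3, a lysophospholipase D that makes lysophosphatidic acid (chromosome 7, 126766334 to 126775649), stood at 57.1, 53.7 and 47 CPM in WT and at 4.78, 5 and 3.44 CPM in KO. The groups were far apart, with a log2 difference of -3.56 ± 0.20 (adjusted p = 6.64e-09, edgeR quasi-likelihood test, as for all adjusted p below). Zfp973, a zinc finger gene of a chromosome 2 family whose copies are alike, had 9.12, 12.3 and 5.65 CPM in WT and 0.531, 0.639 and 0.598 CPM in KO. Tnn, which encodes the matrix glycoprotein tenascin-N, had 17.2, 18.4 and 18.1 CPM in WT and 3.32, 3.19 and 3.59 CPM in KO. In both genes the 3 KO libraries lay close together and far below WT. Atp1a4, the α4 subunit of the sodium pump, known from sperm, had 0 counts in all 3 KO libraries and 10.3, 7.02 and 6.3 CPM in WT, at least 17.5-fold lower when KO is set at 3 counts per library. The protein-coding model Gm12666 was likewise at 0 in KO and at 4.63 to 5.7 CPM in WT, at least 11.8-fold lower.

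The other lower genes were of several kinds, membrane proteins among them. Cntn1, the adhesion molecule contactin 1, had 35.7, 57.3 and 45.2 CPM in WT and 9.17, 12.6 and 9.27 CPM in KO, a log2 difference of -2.15 ± 0.32 (adjusted p = 0.00257, edgeR). The sulfatase gene Arsj fell by 2.01 on the log2 scale, the galactosidase-like Glb1l2 by 1.68, the orphan receptor Gprc5b by 1.21 and Mill2, an MHC class I-like gene, by 1.02, with the libraries of the 2 genotypes apart in each. Glb1l2 and Gprc5b overlap the genes B3gat1 and Iqck on the other strand. The counting is not stated to use the strand, so reads from such a pair cannot be assigned to one gene with certainty. D430041D05Rik had 15 to 28.2 CPM in WT and 2.54 to 3.59 CPM in KO.

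Among the higher genes, the interferon-inducible Ifi200 family led. Ifi213 (chromosome 1, 173566283 to 173599274), one of this family of nuclear DNA-binding proteins, had 0.253, 0.146 and 0.643 CPM in WT and 52.4, 31.3 and 34.8 CPM in KO. It was almost absent from WT lung, and its log2 difference was 6.73 ± 0.38 (adjusted p = 6.64e-09, edgeR). Its neighbour Ifi206 had 0.887, 0.439 and 0.257 CPM in WT and 22.9, 12.7 and 14.2 CPM in KO, and Ifi209 had 4.09 to 4.31 CPM in WT and 18.7 to 40.7 CPM in KO.

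The higher genes outside this family had varied functions. Chil1, a chitinase-like glycoprotein made by macrophages and epithelium in allergic lung inflammation, had 19.1, 18.7 and 30.1 CPM in WT and 245, 261 and 142 CPM in KO, a log2 difference of 3.25 ± 0.52 (adjusted p = 0.00433, edgeR). Cd59a, an inhibitor of the complement membrane attack complex, rose from 8.19 to 8.61 CPM in WT to 23.4 to 28.4 CPM in KO. Hdc, the enzyme that makes histamine, had 23.4, 23.7 and 28 CPM in WT and 57.4, 59.4 and 58.8 CPM in KO. Spread within each genotype was small for Cd59a and Hdc and larger for Chil1. The endoplasmic reticulum oxidase Ero1lb rose by 1.67 ± 0.24 on the log2 scale, the sialic acid lyase Npl by 2.55 ± 0.40, Psmc3ip, a recombination factor that overlaps Mlx on the other strand, by 1.65 ± 0.25, and Ccdc28b, a cilium gene that overlaps Tmem234, by 1.39 ± 0.22, each with an adjusted p of 0.00452 or less (edgeR).

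The 26 listed genes of the interferon response were all above 0 in KO against WT, and 11 of them passed the threshold, 42.3% of the list against 0.749% of all protein-coding genes called higher. They were Oas2, Oas1a, Oas3, Oasl1 and Oasl2, sensors of double-stranded RNA, the antiviral GTPases Mx1 (annotated as a polymorphic pseudogene, since many laboratory strains carry a damaged copy) and Gbp3, the ubiquitin-like Isg15, the transcription factor Irf7, and Ifi44 and Ifi27l2a. The median log2 difference of the list was 1.02, beside 0.01 over all protein-coding genes. Oas2 had 3.93, 2.19 and 1.67 CPM in WT and 38.4, 10.2 and 11.7 CPM in KO, a log2 difference of 2.93 ± 0.47 (adjusted p = 0.00433, edgeR). Mx1 had 1.77, 0.877 and 2.19 CPM in WT and 10.1, 4.05 and 7.18 CPM in KO, and Irf7, which overlaps Phrf1 on the other strand, had 8.74, 11.7 and 8.99 CPM in WT and 43.6, 19.6 and 24.5 CPM in KO. In all 3 genes KO mouse 52 was the highest library, and the other KO libraries were still above the WT libraries.

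The interferon calls depended on single libraries. Without KO mouse 52, 5 of the 26 genes passed, without WT mouse 50 there were 6 and without WT mouse 65 there were 7. With the i5 index as a term 2 passed (Oas2 and Oas1a), and in females alone 1. Without any one of the 3 other libraries 8 to 10 passed. Members that did not pass included Irgm1, a GTPase that acts on vacuoles of microbes (log2 difference 0.83, adjusted p = 0.0635 in edgeR), which is under the 2-fold threshold, and Ifit1, which binds viral RNA (0.93, adjusted p = 0.2). The Oas and Oasl genes are near copies of each other, and their counts are uncertain to the extent that reads were split between them.

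**Figure D2:**
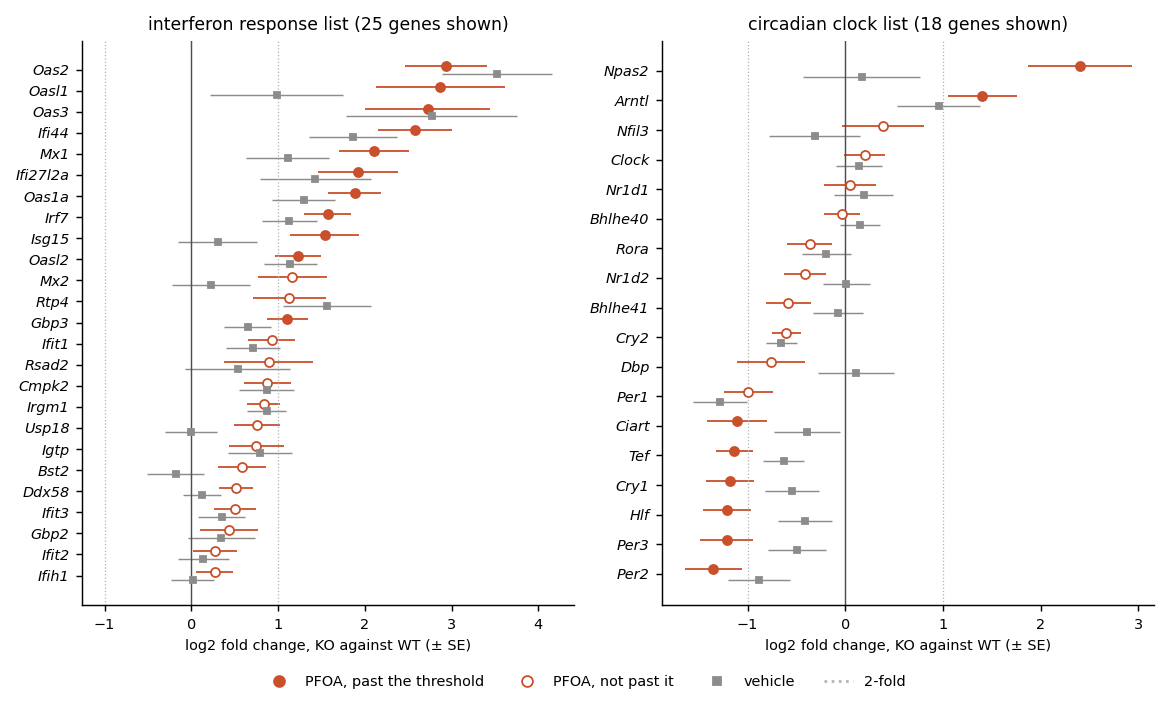
The log2 fold change of KO against WT with its SE for 25 of the 26 interferon response genes (left) and 18 of the 19 circadian clock genes (right), circles for PFOA (filled where past the threshold) and grey squares for vehicle. All 25 interferon genes shown lie above 0 on PFOA and 11 pass, whereas among the clock genes shown Npas2 and Arntl pass above 0 and 6 genes pass below it.

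The upstream sequences of 4 interferon-inducible genes that were higher in KO are shown. The 250 bases before the RefSeq start (GRCm38.p6, the build of mm10) were searched on both strands for GAAA followed after NN (any 2 bases) by GAAA, the core of the interferon-stimulated response element, where overlapping matches run together. It was present in 2.75% of 18818 windows of the genes tested, in 11 of the 19 interferon list genes that have a window, and in 4 of the 8 of these that passed (Isg15, Oas1a, Oas3 and Gbp3). Over the 165 altered genes with a window, 19 held it (11.5%), against 3.3% of all 14954 genes with a window. The windows of Oas1a (chr5:120907526-120907775, minus strand), Isg15 (chr4:156200819-156201068, minus strand), Ifi213 (chr1:173599273-173599522, minus strand) and Ifi206 (chr1:173491319-173491568, minus strand) follow, 5′ to 3′ with the matches in capitals.
Oas1a: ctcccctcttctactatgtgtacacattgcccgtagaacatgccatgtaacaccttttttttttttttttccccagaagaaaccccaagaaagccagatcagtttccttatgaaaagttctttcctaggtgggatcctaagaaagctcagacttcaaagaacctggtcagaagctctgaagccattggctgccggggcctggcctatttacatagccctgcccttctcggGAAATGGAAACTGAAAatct
Isg15: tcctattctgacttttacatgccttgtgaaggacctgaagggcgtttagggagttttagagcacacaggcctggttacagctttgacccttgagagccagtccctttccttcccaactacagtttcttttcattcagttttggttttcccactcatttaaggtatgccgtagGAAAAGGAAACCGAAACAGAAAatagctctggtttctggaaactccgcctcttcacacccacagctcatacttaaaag
Ifi213: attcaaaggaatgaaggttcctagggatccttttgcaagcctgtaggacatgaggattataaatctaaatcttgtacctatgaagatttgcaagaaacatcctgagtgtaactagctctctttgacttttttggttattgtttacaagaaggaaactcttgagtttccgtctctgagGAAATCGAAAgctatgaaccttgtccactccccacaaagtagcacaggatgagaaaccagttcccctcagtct
Ifi206: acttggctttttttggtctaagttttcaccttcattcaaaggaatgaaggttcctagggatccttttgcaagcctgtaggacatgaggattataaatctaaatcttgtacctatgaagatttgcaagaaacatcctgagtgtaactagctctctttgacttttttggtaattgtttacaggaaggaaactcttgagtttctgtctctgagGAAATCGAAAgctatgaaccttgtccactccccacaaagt
The match ends close to the start in Oas1a, where its first base is 20 bases upstream, and lies 78 bases upstream in Isg15. The Ifi213 and Ifi206 windows share a run of 135 identical bases, an example of how alike the members of this family are. A match is a description of letters and not of bound protein.

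The altered genes were grouped along the chromosomes. Of the 269, 104 (38.7%) had another altered gene within 0.5 Mb, against 16.1% of all autosomal genes. The densest group was the Ifi200 family at chromosome 1, 173468485 to 173982744, where 9 of the 12 genes tested were altered. Ifi206, Ifi213, Ifi209, Ifi204, Ifi203-ps, Mndal, Ifi211 and Ifi203 were higher in KO, and Ifi202b at the end of the group was lower, with 0 counts in all 3 KO libraries and 2.03, 1.9 and 3.6 CPM in WT. Mndal, for example, had 20.8 to 26.2 CPM in WT and 52 to 68.2 CPM in KO. In this family reads may be split between near-identical copies, so single members are uncertain.

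The second group was the Schlafen family, regulators of T cell and myeloid growth, at chromosome 11, 83002158 to 83215154, where 5 of 8 genes were higher. Slfn4 had 3.67, 2.34 and 3.6 CPM in WT and 40, 11.9 and 17.2 CPM in KO (log2 difference 2.83 ± 0.49, adjusted p = 0.00818, edgeR), and Slfn1 had 4.09 to 7.1 CPM in WT and 9.48 to 20.9 CPM in KO. KO mouse 52 was again the highest in both. Of 17 genes that the study plotted across genotypes, a list chosen on these samples, Slfn4 and Slfn1 passed and the other 15 did not. Another group, of very large interferon-inducible GTPases at chromosome 7, 105925000 to 106604035, had 5 of 8 genes higher, among them Gvin1 with 10, 20.6 and 25.6 CPM in WT and 50.1, 31.1 and 123 CPM in KO. Fcgr2b and Fcgr3, Fc receptors for immunoglobulin G, were higher side by side on chromosome 1, with log2 differences of 1.28 ± 0.23 and 1.45 ± 0.32.

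Chromosome 1 held 41 altered genes (2.21% of its genes), the highest share of the autosomes, and chromosome 16 the lowest (0.364%). Within 10 Mb of Ppara, 4 of 367 genes were altered (1.09%, near the 1.03% over all autosomes): Cntn1, Tef and Tmem117 were lower, and Ncf4, a subunit of the phagocyte oxidase, was higher. In all, 12 autosomal genes had 3 or fewer counts in every KO library and 10 or more in every WT library, and 13 genes showed the reverse. The first set held Atp1a4, Ifi202b and Serpina3k, a serine protease inhibitor gene of the liver, and the second held 1 protein-coding gene, the histone gene Hist1h4n. Among the rest of the second set were 4 copies of 5S ribosomal RNA on chromosome 8 (n-R5s106, n-R5s118, n-R5s130 and Gm24312) whose values were identical to each other in each library.

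The clock genes formed the second list with many calls. Of 19 clock and clock-output genes tested, 2 were higher and 7 lower in KO, 47.4% of the list against 0.749% of all protein-coding genes called higher and 0.432% called lower, with a median log2 difference of -0.60. The 2 higher genes encode the positive arm: Arntl (BMAL1) had 5.58, 6.58 and 5.65 CPM in WT and 13, 20.4 and 13.5 CPM in KO, and its relative Npas2 had 1.39, 1.17 and 2.06 CPM in WT and 5.98, 11.1 and 7.63 CPM in KO. KO mouse 154 was the highest in both, and no KO library overlapped WT.

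The 7 lower genes were mostly repressors of the clock and regulators of its output. Per2 had 146, 155 and 136 CPM in WT and 67, 57.3 and 46.4 CPM in KO, a log2 difference of -1.35 ± 0.29 (adjusted p = 0.0451, edgeR). Cry1 had 23.8, 23.5 and 21.3 CPM in WT and 13.6, 8.52 and 8.22 CPM in KO. Tef, a PAR leucine zipper factor of the output pathway, had 425, 426 and 355 CPM in WT and 212, 173 and 164 CPM in KO. Every KO library was below every WT library in these 3 genes. On the log2 scale Per3 and Hlf each fell by 1.21, and Ciart by 1.11. Per1 (-0.99, adjusted p = 0.106 in edgeR) and Cry2 (-0.60, adjusted p = 0.0814) had small enough p but did not reach 2-fold, Dbp had -0.76 (adjusted p = 0.609), and Clock (0.20) and Nr1d1 (0.05) were close to 0.

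Without KO mouse 155 the clock calls went from 9 to 3 (1 higher and 2 lower), without WT mouse 56 they were 5, and without any other single PFOA library 6 to 8. With sex as a term 4 lower genes passed and none higher, with the i5 index 1 higher and 4 lower, and in females alone 2 lower. The hour at which the lungs were taken is not given in the sources used here. E-boxes (CACGTG, both strands, the element bound by CLOCK and BMAL1) were present in 8.55% of the 14954 genes with a window. Of the 165 altered genes with a window 14 held one (8.48%), near the share of all genes. Among the 16 clock genes with a window they were present in Per1, Cry1, Tef, Bhlhe41 and Ciart. The D-box (TTANGTAA, both strands, bound by TEF and HLF) was present in 2.03% of these genes and in 7 of the 165 altered genes (4.24%). Among the clock gene windows it was present in that of Per3. Of the 7 altered clock genes with a window, 3 held an E-box and 1 held a D-box. The windows of 3 lower genes that held a match are shown as examples. Those of Cry1 (chr10:85185055-85185304, minus strand) and Ciart (chr3:95882229-95882478, minus strand) have E-boxes in capitals. That of Per3 (chr4:151044666-151044915, minus strand) has D-boxes in capitals.
Cry1: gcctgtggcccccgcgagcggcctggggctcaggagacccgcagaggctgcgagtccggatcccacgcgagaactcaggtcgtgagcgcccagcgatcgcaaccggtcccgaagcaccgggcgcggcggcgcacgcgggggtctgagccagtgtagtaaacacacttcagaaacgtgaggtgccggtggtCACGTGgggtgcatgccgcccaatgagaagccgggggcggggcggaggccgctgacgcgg
Ciart: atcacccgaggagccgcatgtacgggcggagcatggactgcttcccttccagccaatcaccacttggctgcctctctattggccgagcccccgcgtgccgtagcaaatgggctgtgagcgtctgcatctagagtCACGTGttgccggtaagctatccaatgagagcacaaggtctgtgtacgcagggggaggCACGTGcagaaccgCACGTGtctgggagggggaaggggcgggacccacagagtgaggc
Per3: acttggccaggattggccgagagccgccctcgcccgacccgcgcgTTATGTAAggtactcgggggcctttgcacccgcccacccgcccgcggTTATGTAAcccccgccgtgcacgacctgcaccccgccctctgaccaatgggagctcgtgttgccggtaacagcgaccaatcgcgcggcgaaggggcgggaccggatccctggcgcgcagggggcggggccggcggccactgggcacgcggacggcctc
Ciart held 3 E-boxes and Per3 held 2 D-boxes, and Cry1 held 1 E-box that begins 60 bases before the start.

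None of the 40 PPARα target genes tested passed the threshold in KO against WT, and their median log2 difference was -0.18. The list spans fatty acid uptake, β-oxidation, ketogenesis and lipid droplets, and the liver-type targets Acot3, Cyp4a10, Cyp4a14, Cyp4a31, Fgf21 and Creb3l3 were under the minimum of 20 counts. In 10 of the 40 genes all KO libraries were below all WT libraries, and in 3 they were above, which makes 13 of 40 against 21.5% of all protein-coding genes. Angptl4, an inhibitor of lipoprotein lipase, had 72, 60.2 and 75.2 CPM in WT and 44.4, 46 and 26.6 CPM in KO (log2 difference -0.82 ± 0.46, adjusted p = 0.752, edgeR). WT and KO did not overlap, but the gene did not pass.

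Other members had closer levels. Cpt1a, which moves fatty acids into mitochondria, had 137, 137 and 125 CPM in WT and 115, 122 and 122 CPM in KO. The kinase Pdk4, which slows glucose oxidation, varied more within WT (34.3, 23.1 and 90.3 CPM) than between the genotypes (28.7, 22.4 and 17.8 CPM in KO). When the fit held only the 6 PFOA libraries, 2 of the 40 targets passed as lower, Pdk4 among them. The direct repeat of AGGTCA with 1 base N between the copies, the sequence that the PPARα and RXR pair binds, was in 8 of 18818 windows (0.0425%) on either strand and in none of the 31 target genes with a window.

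**Figure D3:**
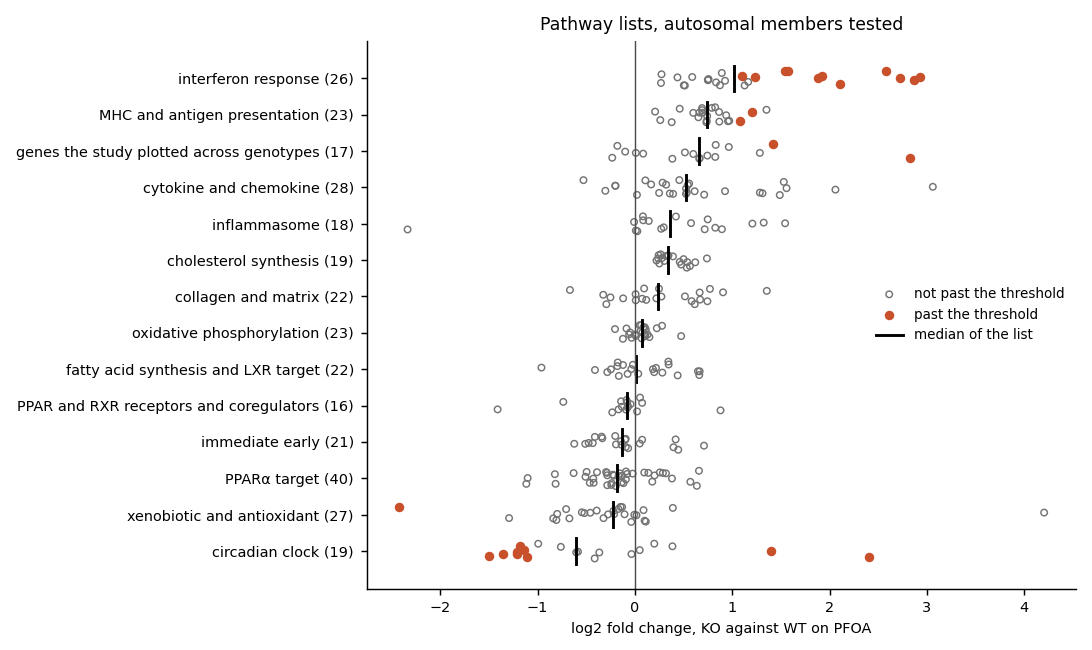
The log2 fold change of KO against WT on PFOA for the autosomal members of 14 pathway lists, with the number tested in brackets. Each point is a gene, filled where past the threshold, and the bars are list medians. The filled points lie in the interferon (11), clock (9), MHC (2) and plotted-gene (2) lists and at Cyp1a1, while no PPARα target is filled.

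All 23 genes of antigen presentation had a log2 difference above 0, with a median of 0.74, and 7 had an adjusted p under 0.2, but only Nlrc5, the activator of MHC class I genes, and H2-Q6 exceeded 2-fold. Nlrc5 had 18.2, 13.3 and 17.2 CPM in WT and 40.5, 32.2 and 39.6 CPM in KO (1.20 ± 0.23, adjusted p = 0.023, edgeR). H2-Q6, one of a set of like class I genes whose reads may be shared, had 63.2, 48.5 and 68.5 CPM in WT and 104, 102 and 176 CPM in KO. Only 1 of the 2 passed without KO mouse 155, WT mouse 50 or WT mouse 56, and 0 passed with the i5 index as a term or in females alone.

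Of the marker lists of immune cells, that of NK and T cells held 3 calls. Of its 16 genes tested, Ncr1, Gzma and Gzmb were higher in KO, beside 0.749% of all protein-coding genes, with summed marker levels of 45 to 55.5 CPM in WT and 72.6 to 109 CPM in KO. Ncr1, the NK receptor NKp46, had 2.03, 1.46 and 2.44 CPM in WT and 9.43, 5.96 and 11.2 CPM in KO (2.14 ± 0.41, adjusted p = 0.0186, edgeR). Ms4a1 (CD20) passed among 13 B and plasma cell markers, whose sums overlapped (208.2 to 352.1 CPM in WT, 205.3 to 387.4 CPM in KO). Plac8 passed among 10 monocyte markers, whose sums were 1354 to 1652 CPM in WT and 1099 to 1361 CPM in KO. The sums went the other way from most of these markers: 9 of the 10 had a log2 difference above 0, with a median of 0.75. The abundant Ace was the lowest (-0.39). The 9 neutrophil markers had summed levels of 17.1 to 60.9 CPM in WT and 63.2 to 107 CPM in KO, a median log2 difference of 1.33 and no call (S100a9 1.89, adjusted p = 0.228). The part of these cells in the interferon and antigen presentation results was not tested. Without any one PFOA library the 3 NK and T cell calls became 2, since Gzmb was lost. With the i5 index as a term 1 of the 3 passed, and in females alone 0. The calls of Plac8 and Ms4a1 were lost without any one of KO mice 52 and 155 and the 3 WT mice, with sex or the i5 index as a term, and in females alone.

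No gene passed in the lists of alveolar type 1 and type 2, club, ciliated, endothelial, fibroblast, smooth muscle, cardiac, skeletal muscle, adipocyte, alveolar macrophage, erythroid, mesothelial and proliferating cells. The medians of these lists ran from -0.64 (skeletal muscle) to 0.64 (proliferating cells), with Sftpc at 0.29 and Scgb1a1 at -0.23. The summed levels did not overlap in 4 of these lists: type 2 markers had 7414 to 8552 CPM in WT and 9785 to 10178 CPM in KO, type 1 markers 3434 to 3938 CPM in WT and 3272 to 3429 CPM in KO, skeletal muscle markers 23.4 to 51.8 CPM in WT and 11.2 to 23.2 CPM in KO, and markers of dividing cells 36.0 to 47.7 CPM in WT and 63.8 to 79.2 CPM in KO. Their part in the other results was not tested. Mki67, a marker of dividing cells, had a log2 difference of 0.85 (adjusted p = 0.1, edgeR), under 2-fold.

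The other pathway lists held few calls or none. Of 27 xenobiotic and antioxidant genes, Cyp1a1, the aryl hydrocarbon receptor target, passed as lower, with 5.2, 6.43 and 2.96 CPM in WT and 0.797, 1.6 and 0.15 CPM in KO (-2.43 ± 0.68, adjusted p = 0.171, edgeR). The call was lost without any one of KO mice 52 and 155, the 3 WT mice and the KI vehicle mouse 135, with the i5 index or sex as a term and in females alone. The flavin monooxygenase Fmo2, abundant in lung, had 1568, 1445 and 1137 CPM in WT and 789, 806 and 725 CPM in KO, a difference under 2-fold (-0.84, adjusted p = 0.152). Of 22 genes of fatty acid synthesis and LXR response none passed. The cholesterol exporter Abca1 had 465, 355 and 303 CPM in WT and 186, 214 and 177 CPM in KO (-0.96, adjusted p = 0.134), and the desaturase Scd1 had 952.2, 745.4 and 1090 CPM in WT and 1637, 1385 and 1400 CPM in KO (0.67, adjusted p = 0.746). Neither pair of groups overlapped.

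The 19 cholesterol synthesis genes were all above 0, with a median of 0.34, and in 13 of them every KO library exceeded every WT library, beside 21.5% of all protein-coding genes that did not overlap in either direction. None of the 19 passed. None passed among 18 inflammasome genes (Nlrp3 0.83, adjusted p = 0.648, and Il1b 1.54, adjusted p = 0.338), 28 cytokine and chemokine genes, 22 collagen and matrix genes (Col1a1 0.74, adjusted p = 0.0563), 21 immediate early genes or 23 genes of oxidative phosphorylation.

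In most of the 269 genes the vehicle libraries differed in the same direction. All 17 libraries set the spread behind the calls, so the vehicle values are not independent of the choice of genes. The log2 differences on the 2 waters had a Pearson r of 0.88 over these genes and of 0.069 over all autosomal genes tested. Of the 269 genes, 257 had the same sign in KO against WT on vehicle and 12 the opposite one, with a median vehicle difference of 1.26 in the direction of the PFOA difference, whose median size was 1.68 (log2). In 195 genes (72.5%) all vehicle KO libraries lay beyond both WT libraries in that direction, against 12.3% of autosomal genes higher and 10.7% lower, and in 1 gene, the antisense transcript 4930453C13Rik, they lay beyond them in the other. The 12 genes of opposite sign included Ifi204 of the Ifi200 family, the hexokinase Hk3 (1.44 on PFOA and -0.19 on vehicle), the leukocyte myosin Myo1g and the tetraspanin Tspan4. Gdpd3 had 45.6 and 39.8 CPM in WT and 6.22, 4.22 and 6.03 CPM in KO on vehicle, and Ifi213 had 0.133 and 0.328 CPM in WT and 25.6, 31 and 27.8 CPM in KO. Without libraries 122 and 137, 253 genes had the same sign.

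On vehicle, KO and WT differed in 360 genes (1.38%), 240 higher (0.92%) and 120 lower (0.46%), and 108 genes were altered on both waters in the same direction, 40.1% of the PFOA list and 30% of the vehicle list. The vehicle count was 1649 without WT mouse 107, 551 without KO mouse 149, 30 without WT mouse 122 and 43 without libraries 122 and 137. The difference between the 2 genotype differences was altered in 0 genes (edgeR), with 1945 autosomal genes at an unadjusted p under 0.05 and a smallest adjusted p of 0.669. DESeq2 called 3 genes (Bpifa1, Synb and the unnamed model Gm38009). Leaving out WT vehicle mouse 107 gave 167 calls and leaving out WT PFOA mouse 65 gave 1.

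On vehicle the clock list had a median of -0.31 with 1 gene past the threshold (Per1, -1.28), and the interferon list a median of 0.75 with 5 (Oas1a, Oas2, Oasl2, Irf7 and Ifi44). The difference between the waters did not pass for any member of either list. Npas2, for example, had 2.80 and 3.28 CPM in WT and 6.68, 2.11 and 2.01 CPM in KO on vehicle, where the groups overlapped, and its unadjusted interaction p was 0.0114 (edgeR). Hdc had 32.2 and 30.8 CPM in WT and 30.9, 43.8 and 47.8 CPM in KO on vehicle, with an unadjusted interaction p of 0.00928 (edgeR). Library 137, one of the 2 that stood apart, was the lowest KO library for Hdc and the highest for Npas2. Other lists had more calls on vehicle than on PFOA. The club cell list had 6 of 9 genes lower on vehicle (median -1.11) and 0 calls on PFOA (median -0.05). The xenobiotic and antioxidant list had 5 of 27 lower on vehicle and 1 on PFOA. Over all autosomal genes 0.46% were called lower on vehicle.

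**Figure D4:**
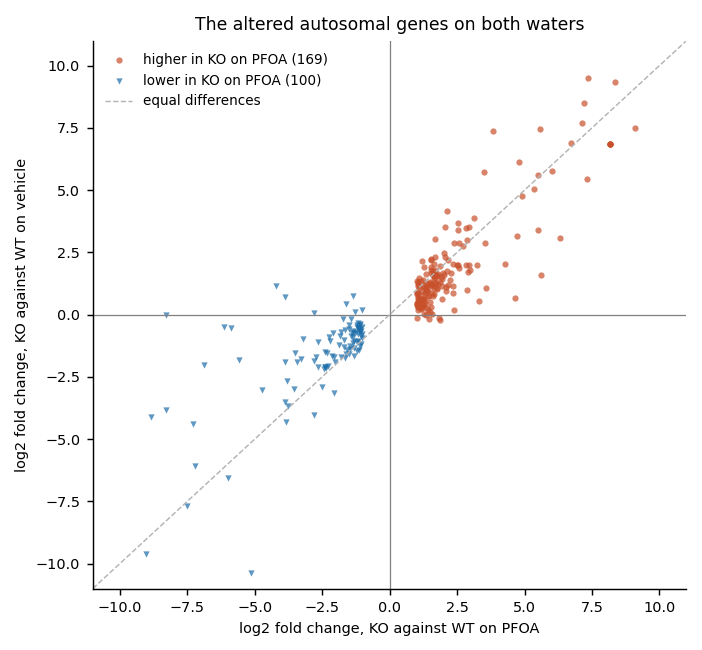
The log2 fold change of KO against WT on PFOA (x axis) and on vehicle (y axis) for the 269 altered genes, circles for the 169 higher and triangles for the 100 lower on PFOA. The 2 axes share no library, 257 points lie in the quadrants of equal sign, and the dashed line marks equal differences.

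The KI libraries, from mice of the same colony as KO that carry human PPARα, were mostly on the side of KO. The vehicle libraries do not enter the PFOA means, but all libraries, KI among them, set the spread behind the calls. On vehicle the 3 KI libraries lay beyond both WT libraries in the direction of the KO difference in 190 of the 269 genes (70.6%). This compares with 11.8% of autosomal genes higher and 10.3% lower in KI. They lay beyond WT in the other direction in 4 genes (Gm38009, Tspan4, Gm17039 and Igkv3-12). Without library 122 the count was 212 (78.8%), against 24.4% higher and 25.1% lower. Over both waters, the 5 WT libraries lay beyond all 12 KO and KI libraries in 106 of the 269 genes (39.4%; 0.932% of all autosomal genes). The 6 KO libraries lay beyond all 11 WT and KI libraries in 1 gene, Gm45332 (0.372%; 0.0575% of all autosomal genes). These last counts include the PFOA libraries compared. All counts of this paragraph are given as a description, since every library had a part in the choice of the 269 genes.

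Levels in KI lung are given for single genes. Gdpd3 had 4.8, 5.4 and 4.33 CPM in KI lung on PFOA, level with KO. Ifi213 had 17.2, 27.5 and 33.3 CPM in KI, Atp1a4 0.114, 0 and 0.279 CPM and Tnn 6.17, 4.24 and 4.75 CPM, also near KO and away from WT. Oas2 had 6.85, 15.2 and 13 CPM, above WT in all 3. The clock gene Tef had 404, 220 and 262 CPM in KI on PFOA, of which 1 lay within the WT range and 2 between the genotypes, and Cry1 had 18.3, 10.5 and 20.7 CPM, of which 2 lay between the genotypes and 1 within the KO range.

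**Figure D5:**
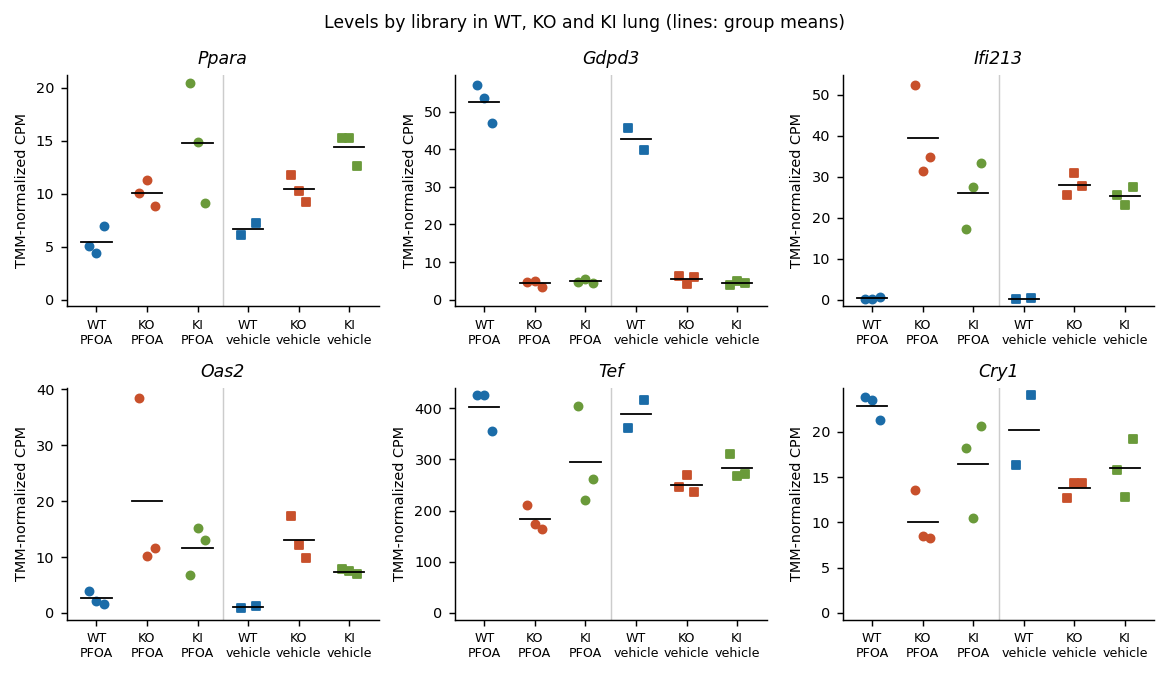
TMM-normalized CPM by library for Ppara, Gdpd3, Ifi213, Oas2, Tef and Cry1 in WT, KO and KI lung, circles for PFOA and squares for vehicle, with lines at group means. Gdpd3 and Ifi213 separate WT from both KO and KI on both waters, whereas Tef in KI on PFOA has 1 library in the WT range and 2 between WT and KO, and Cry1 has 2 between and 1 in the KO range.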

How the data were processed

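Lung RNA libraries were made from 6 ng of total RNA with a stranded pico-input kit. The authors used Partek Flow, with STAR 2.6 as the aligner and mm10 as the genome, and deposited expected counts per gene from an expectation-maximization model (29.9% of values were not whole). The submitters' processing notes also name DESeq2 with version 3.5. Whether counting used the strand, and the gene annotation, are not given in the sources used here, so positions are from GENCODE M21. Estimated counts were rounded and CPM was computed here with TMM-scaled library sizes.

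Genes with a total of 20 or more over the 17 libraries (4116116 to 9237385 counts each) were fitted with edgeR 4.0.16 (quasi-likelihood, 6 group coefficients, R 4.3.3, limma 3.58.1), with p-values adjusted by Benjamini-Hochberg over all 26946 genes. A gene was called altered at an adjusted p under 0.2 and over 2-fold. SE is of the log2 difference. Replicates were separate mice by their numbers, and no library was a copy of another. Scripts were tested on simulated data. DESeq2 1.42.0, other scalings and filters, sex, i5 index and left-out libraries were alternatives. The protein-coding share as a term and leaving out vehicle libraries 122 and 137 were added after seeing the data.

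The comparison, its members and the gene lists were chosen with earlier results of these data known, so the lists are described by counts and medians only. The genes named are the 12 higher and 12 lower non-overlapping protein-coding genes with the smallest p and a mean of at least 1 CPM, the PPAR and RXR genes, list members that passed, up to 4 abundant members of lists with 1 or none, examples among PPARα targets and plotted genes, and calls within 10 Mb of Ppara. Other named list members, genes in runs and vehicle examples were chosen after their values were seen. Promoters are RefSeq, GRCm38.p6, and matched 165 of the 269 altered genes by symbol. Counts per gene carry no interval beyond the spread between mice. Some list members are counted in the lists but not reported here by name.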

Additional observations from a re-analysis of the deposited data

Results flagged for a closer look

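In 1 gene of those reported, the KO libraries were all above WT on PFOA and all below WT on vehicle. Srebf2, the transcription factor of cholesterol synthesis, had 98.6, 107 and 96.3 CPM in WT and 115, 124 and 120 CPM in KO on PFOA, and 116 and 130 CPM in WT and 99.0, 114 and 114 CPM in KO on vehicle. The log2 difference between KO and WT was 0.25 on PFOA and -0.17 on vehicle. These were 0.42 apart (unadjusted p = 0.028, edgeR), which did not pass after adjustment. The vehicle groups hold 2 WT and 3 KO libraries. The WT value of 130 CPM was that of library 122 and the KO value of 99.0 CPM that of library 137, which stood apart in protein-coding share. Apart from these libraries the vehicle levels were 116 CPM in WT and 114 and 114 CPM in KO, close together. Srebf2 was singled out by its pattern, and the share of all genes with such a reversal is not given. In all, 1945 autosomal genes had an unadjusted interaction p under 0.05 (edgeR).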

How the results depend on the processing

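No paired analysis was possible because each mouse has a number of its own that no other group shares. The 269 altered genes on PFOA became 148 with at least 10 counts in every library, 53 in females alone, 88 with the i5 index as a term, 633 in a fit of the 6 PFOA libraries, 109 at an adjusted p under 0.05 with the fold threshold and 120 without it. Added after seeing the data, the protein-coding share as a term gave 516 and leaving out vehicle libraries 122 and 137 gave 493. Leaving out single libraries gave 120 to 393. The 360 altered genes on vehicle became 614 by DESeq2 with its default filters, 172 with at least 10 counts in every library, 146 with the i5 index, 195 with sex, 898 with the protein-coding share, 43 without libraries 122 and 137 and 30 to 1649 without single libraries. The 0 altered genes for the difference between waters became 3 by DESeq2 under both of its settings, 1 with at least 10 counts in every library and 0 to 167 without single libraries. The cause of these changes was not tested. The reduced fits held fewer samples or genes. Of the 57 genes followed over 31 settings, none changed direction, and 16 of 53 altered genes kept their call in every setting in which they could be fitted. Genes under 10 counts in a library had no value in the setting that requires 10 counts in every library. Of the 171 lost calls, 34 came from females alone, 23 from the i5 index, 16 each from leaving out KO mouse 155, WT mouse 50 or WT mouse 56, and 14 from sex. With sex as a term 181 genes were altered on PFOA, and only 151 of the 269 still passed. Of the 269, 264 were also altered by DESeq2 and 262 with the protein-coding share as a term. Other scalings gave 264 and 253 altered genes. Over the 17 libraries 3 counts correspond to 0.325 to 0.729 CPM, and differences between levels under this were not detectable.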
